A study of Mus musculus with 8 samples.

Results

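The genes of glycolysis, glucose uptake and lactate handling were followed in tumor cells sorted from subcutaneous Myc-CaP tumors. The set was given as a list of 37 gene symbols out of 39089 rows, and covers glucose transporters, the enzymes of glycolysis with their isozymes, lactate dehydrogenase and lactate carriers, and the kinases and subunits of pyruvate dehydrogenase. All 37 symbols had a row, and 33 passed the filter on low counts and were tested among 13921 genes. The 4 that did not pass were *Slc2a3* (0 to 2 counts per sample), *Eno2* (0 to 5), *Pklr* (0 to 1) and *Ldhb* (2 to 15).

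Myc-CaP is a mouse prostate cancer line driven by a Myc transgene. Cells carrying a control vector (Myc-CaP EV, here WT) or an sgRNA against *Arid1a* (here KO), a subunit of the SWI/SNF chromatin remodeler, were grown under the skin of male FVB mice that were 6 weeks old at inoculation. From day 16 the mice received JSH-23, which blocks the nuclear entry of the NF-κB subunit p65, by daily gavage for 2 weeks, or corn oil as vehicle. RNA-seq was done on sorted EpCAM+ CD45- cells in 4 groups of 2 samples: WT with vehicle, KO with vehicle, WT with JSH-23 and KO with JSH-23. All groups share the parental line, the host strain and the sort. The sources do not say whether the KO cells were 1 clone or how many tumors entered a sample, so p-values measure only the spread between these samples, which may be technical.

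In glycolysis, glucose enters the cell through facilitative transporters, is trapped by hexokinase, split into 3-carbon sugars and oxidized to pyruvate. Lactate dehydrogenase turns pyruvate into lactate, which leaves through monocarboxylate transporters together with a proton, while the pyruvate dehydrogenase complex carries pyruvate into the mitochondrion's citrate cycle unless its kinases switch it off. Many of these genes are known targets of MYC and of the hypoxia factor HIF-1, and cancer cells commonly express them at high levels.

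Total counts were between 16401581 and 21972231 per sample. *Arid1a* was lower in both KO groups, with 103 and 106 CPM (counts divided by the TMM-scaled library size and multiplied by 1e+06) against 156 and 161 with vehicle and 93.8 and 95.9 against 144 and 155 with JSH-23. The transcript remained, 1.52-fold and 1.58-fold below WT, and counts do not show what it encodes in KO cells. The gate gene *Epcam* had 0 to 4 counts per sample and *Cdh1* 1 to 19, so the sorted cells had next to no transcript of these defining epithelial genes, whereas *Krt8* (540 to 2308 counts) and *Krt19* (207 to 2106) were present. The 7 epithelial markers summed to 98.6 to 109 CPM in WT with vehicle, 224 to 228 in KO with vehicle, 53.4 to 53.7 in WT with JSH-23 and 190 to 198 in KO with JSH-23. The sum was carried by *Krt8* and *Krt19*, both higher in KO in both treatments. With vehicle *Krt18* and *Cldn4* did not pass (adjusted p = 0.99 and 0.24). With JSH-23 all 4 were higher in KO by the adjusted p, 3 of them at least 1.5-fold. *Epcam*, *Cdh1* and *Ocln* were too low to be tested. The part of these epithelial differences in the results below was not tested. The 9 leukocyte markers summed to 10.1 to 22.3 CPM, the 6 granulocyte markers to at most 0.276 CPM, and *Ptprc*, which encodes the CD45 of the gate, had 0 to 10 counts. The 6 fibroblast markers, mostly *Pdgfra* (704 to 1265 counts), summed to 41.9 to 43.3 CPM in KO with JSH-23 and 61.1 to 65.9 in the other samples. The part of such cells in the values of treated KO cells was not tested. Endothelial, adipocyte and erythroid lists reached at most 1.73, 2.37 and 13.6 CPM.

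Members that moved together are shown first by the DNA upstream of their starts. The 250 bases before the RefSeq start (GRCm38.p6) are given for *Pgk1*, *Ldha* and *Gapdh*, which fell with JSH-23 in WT cells and rose with it in KO cells, and for *Slc16a3*, which had the largest difference between genotypes among members present in every sample. Capitals mark the letters searched on both strands: ACGTG or GCGTG (the usual core of a hypoxia response element), CACGTG (the E-box bound by MYC and its partners, which contains ACGTG) and the NF-κB motif. The sequences run 5′ to 3′ on the strand of the gene.
Pgk1, chrX:106186850-106187099, plus strand: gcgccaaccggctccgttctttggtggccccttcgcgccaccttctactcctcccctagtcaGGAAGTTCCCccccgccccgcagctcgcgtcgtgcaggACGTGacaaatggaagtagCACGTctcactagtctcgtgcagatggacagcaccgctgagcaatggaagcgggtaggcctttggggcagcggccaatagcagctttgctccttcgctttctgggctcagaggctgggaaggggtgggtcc
Ldha, chr7:46845554-46845803, plus strand: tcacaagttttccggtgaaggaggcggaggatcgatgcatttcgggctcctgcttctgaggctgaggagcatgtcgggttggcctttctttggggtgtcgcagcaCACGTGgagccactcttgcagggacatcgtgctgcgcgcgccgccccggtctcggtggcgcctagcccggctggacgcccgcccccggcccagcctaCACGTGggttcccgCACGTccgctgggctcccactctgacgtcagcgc
Gapdh, chr6:125165774-125166023, minus strand: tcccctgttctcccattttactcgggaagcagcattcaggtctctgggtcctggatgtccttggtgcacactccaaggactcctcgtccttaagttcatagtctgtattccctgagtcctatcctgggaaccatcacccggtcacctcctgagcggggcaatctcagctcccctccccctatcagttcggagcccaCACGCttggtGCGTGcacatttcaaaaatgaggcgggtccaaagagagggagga
Slc16a3, chr11:120948817-120949066, plus strand: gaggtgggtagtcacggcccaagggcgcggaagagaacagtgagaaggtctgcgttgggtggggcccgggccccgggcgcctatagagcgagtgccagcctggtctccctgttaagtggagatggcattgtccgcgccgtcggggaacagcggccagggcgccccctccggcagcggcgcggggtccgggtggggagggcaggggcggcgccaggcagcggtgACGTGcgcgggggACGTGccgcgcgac

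Of these, the *Pgk1* window held 2 hypoxia cores and 1 NF-κB match, the *Ldha* window 5 cores of which 4 were read from the 2 E-boxes on both strands, and the *Gapdh* and *Slc16a3* windows 2 cores each. A second RefSeq start of *Ldha* had 1 core in its 250 bases. Promoters were found for 35 of the 37 members, all but *Slc2a3* and *Slc2a4*. A core was present in 29 of the 35 (82.9%), in 59.9% of 11001 tested genes with a promoter and in 41.5% of all 27025 genes with one. ACGTG with A or G directly before it was present in 11 members (31.4%), 13.7% of tested genes and 10% of all. An E-box was present in 6 members (17.1%), *Pfkm*, *Pfkfb2*, *Pfkfb3*, *Ldha*, *Slc16a1* and *Pdk2*, against 9.68% of tested genes and 6.86% of all. The NF-κB motif was present in 5 members (14.3%), *Pfkm*, *Pfkfb2*, *Pgk1*, *Pklr* and *Pdha1*, against 10.3% and 8.23%. These are matches of letters, not bound sites, and they were not tested.

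By TPM, which divides by gene length and so allows genes to be ranked, the transcripts of *Pgk1* and *Gapdh* were the most abundant of the set. Mean TPM over the 8 samples was 7873 for *Pgk1* (phosphoglycerate kinase), 7103 for *Gapdh*, 3668 for *Pkm* (pyruvate kinase), 3628 for *Aldoa*, 3465 for *Eno1*, 2255 for *Tpi1*, 1904 for *Gpi1*, 1494 for *Pgam1*, 1279 for *Ldha* and 551 for *Slc2a1*. The 37 members together took between 3.22% and 3.84% of all counts. Their sum was lowest in WT cells with JSH-23, at 31942 and 32089 CPM, and highest in KO cells with JSH-23, at 40098 and 40244. With vehicle the order was the opposite, with 37892 and 37773 CPM in WT and 35265 and 35463 in KO. These CPM are TMM-scaled, and as a plain share of counts KO with JSH-23 (3.84% and 3.82%) and WT with vehicle (3.84% and 3.83%) were level.

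**Figure D1:**
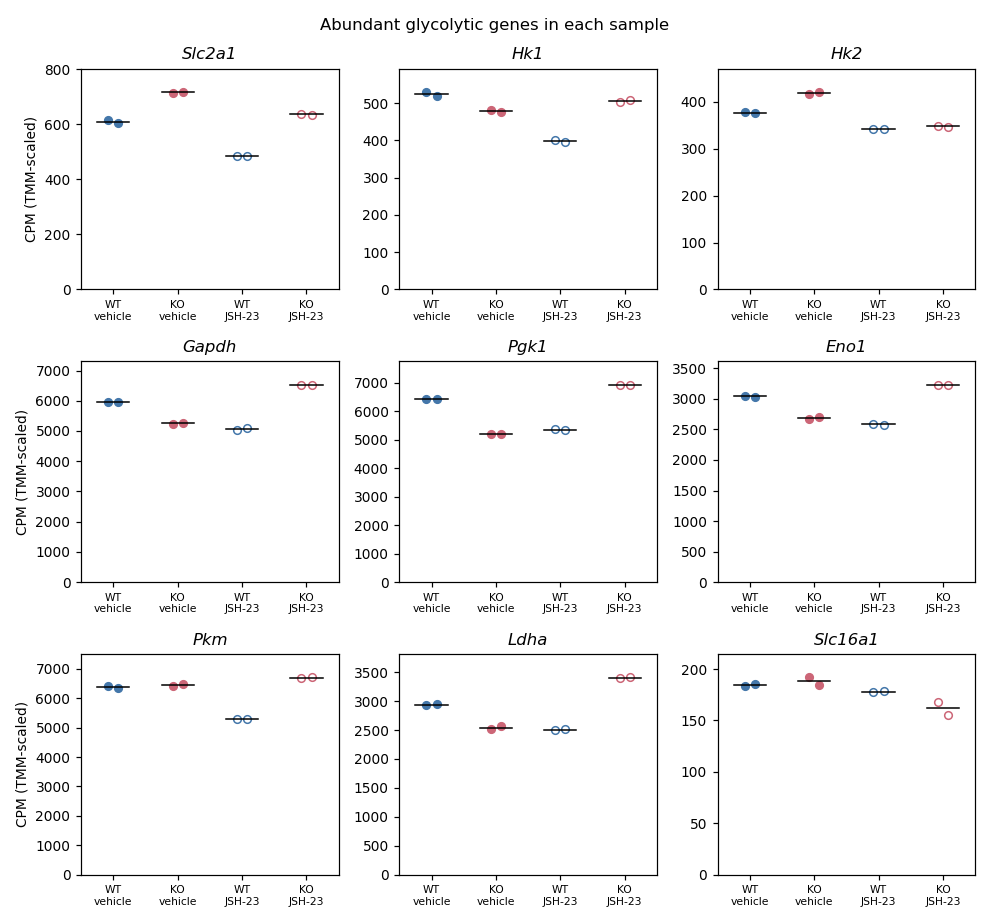
Each panel plots the CPM (TMM-scaled, linear axis from 0) of 1 gene in the 8 samples; blue points are WT and red points KO, filled points vehicle and open points JSH-23, and the black line is the mean of 2 samples. *Gapdh*, *Pgk1*, *Eno1* and *Ldha* are lower in KO than in WT with vehicle and higher with JSH-23, whereas *Slc2a1* is higher in KO in both treatments.

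A gene was called when its Benjamini-Hochberg adjusted p over all 13921 genes was under 0.05 in edgeR's quasi-likelihood test and it differed at least 1.5-fold. In KO against WT cells with vehicle, 1 of 33 tested members was called higher and 2 lower, where 7.48% and 5.16% of all genes were. With JSH-23, again 1 was called higher and 2 lower, against 3.74% and 4.97% of all genes. JSH-23 against vehicle called 2 members higher and 1 lower in WT (all genes 5.55% and 10.2%), and 3 higher and 3 lower in KO (9.1% and 16.9%). The interaction, which is the effect of JSH-23 in KO minus its effect in WT, called 3 members higher and 1 lower (3.3% and 5.76%). In the 4 group comparisons these are shares of 3.03% to 9.09% of the members, near or below those of all genes. By the adjusted p alone, with no limit on the fold, far more members passed. They were 26 (78.8%) in KO against WT with vehicle (all genes 50.5%) and 27 (81.8%) with JSH-23 (47%). For JSH-23 they were 26 (78.8%) in WT (55.8%) and 29 (87.9%) in KO (67.8%), and for the interaction 26 (78.8%, all genes 38.4%). Members and all genes were not matched for abundance. The common biological coefficient of variation between samples of a group was 1.61%, so differences far under 1.5-fold passed.

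Of the members that passed with vehicle most were lower in KO, and of those that passed with JSH-23 most were higher, by small amounts. These were in part different genes. For example, *Slc2a1*, *Gpi1*, *Aldoa* and *Pgam1* were higher in KO in both treatments, and *Aldoc*, *Pfkfb2*, *Eno3* and *Pdk4* lower in both. With vehicle, 16 members were lower in KO and 10 higher by the adjusted p, with a median log2 fold change of -0.13 over the 33 members (0.0032 over all genes). With JSH-23, 18 were higher in KO and 9 lower (4 of the 27 changed sign on log2(TPM + 1)), with a median of 0.15 (all genes -0.011). JSH-23 lowered 19 and raised 7 in WT cells, with a median of -0.24 (all genes -0.0061), and raised 15 and lowered 14 in KO cells (3 of the 29 changed sign without scaling and 5 on log2(TPM + 1)), with a median of 0.0032 (all genes -0.020). For the interaction 21 were above 0 and 5 below, with a median of 0.25 (all genes -0.0041). These medians depend on the scaling. With library size alone and on log2(TPM + 1), the median over members was 0.068 and -0.046 for KO against WT with JSH-23 (all genes -0.088 and -0.16). It was 0.14 and 0.048 for the interaction (all genes -0.11 and -0.17) and -0.11 and -0.20 for JSH-23 in KO (all genes -0.13 and -0.20). It was -0.10 and -0.11 for KO against WT with vehicle and -0.25 and -0.28 for JSH-23 in WT. By the adjusted p, JSH-23 lowered 19.6% of all genes in both genotypes, 5.21% in WT alone and 12.6% in KO alone. It raised 20.5% in both, 5.93% in WT alone and 10.5% in KO alone. A further 2.44% fell in WT and rose in KO, and 2.23% did the reverse. The counts by direction between genotypes and for the interaction have no share of all genes beside them.

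Both effects of JSH-23 were set side by side, since they share no sample. A total of 8 members fell in WT and rose in KO by the adjusted p: *Hk1*, *Aldoc*, *Gapdh*, *Pgk1*, *Eno1*, *Pkm*, *Ldha* and *Pdk3*. That is 24.2% of the tested members, against 2.44% of all genes (339 of 13921), which were not matched to them for abundance. A further 9 members fell in both genotypes (all genes 19.6%), 4 rose in both (20.5%), and 2, *Pfkfb3* and *Pgam2*, rose in WT and fell in KO (2.23%). The count of 8 was noticed after the data were seen. It was 7 with DESeq2, 5 with no scaling (*Aldoa* added, *Hk1*, *Aldoc*, *Pkm* and *Pdk3* lost) and 3 on log2(TPM + 1), where *Gapdh*, *Pgk1* and *Ldha* remained. The share of all genes is given here for the main fit only, so the count of members under other settings has none beside it. With the coefficient of variation set to 0.1 it was 0, with adjusted p = 0.16 for *Pgk1* and 0.25 for *Ldha* in WT.

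**Figure D2:**
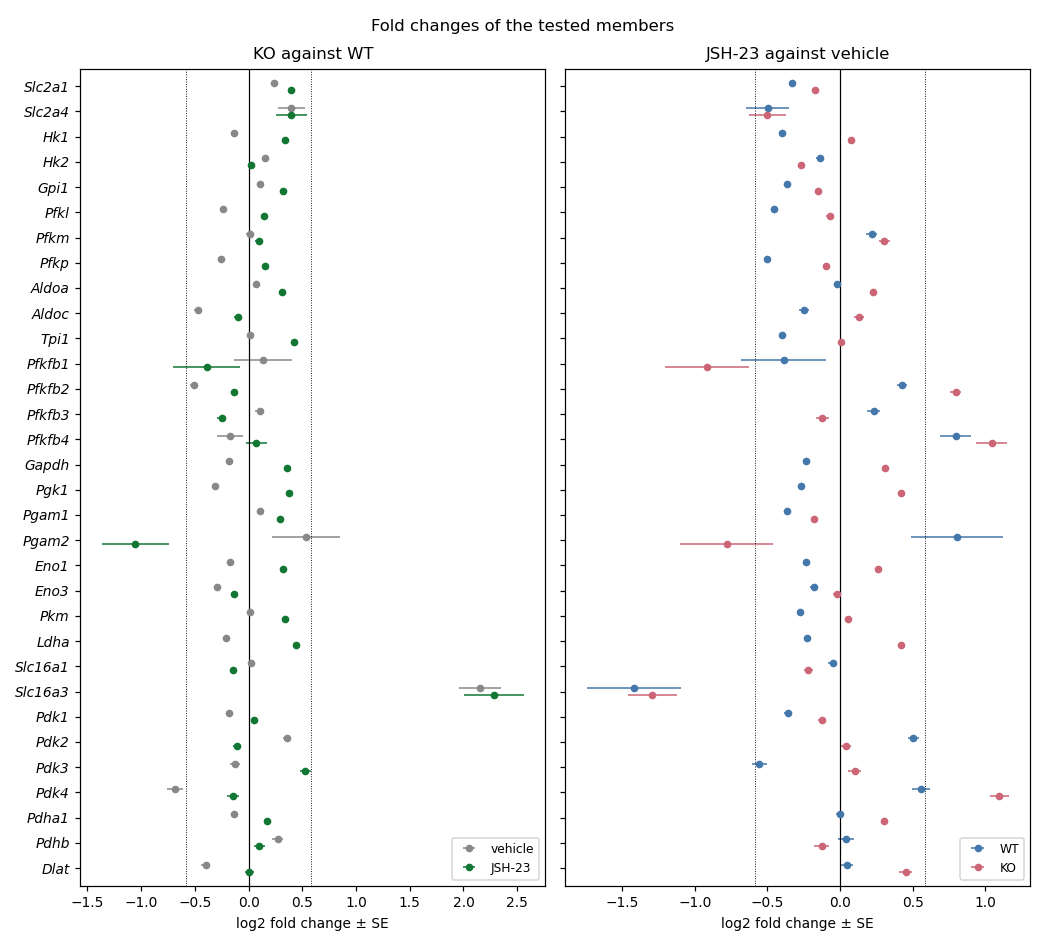
Log2 fold changes with their SE for 32 tested members (*Hk3*, with 0 to 12 counts, is left out), KO against WT on the left (gray vehicle, green JSH-23) and JSH-23 against vehicle on the right (blue WT, red KO), with dotted lines at 1.5-fold. Most points lie between the dotted lines, *Slc16a3* lies far to the right of 0 for KO in both treatments, and *Gapdh*, *Pgk1*, *Eno1* and *Ldha* lie on opposite sides of 0 for JSH-23 in WT and KO.

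*Slc2a1*, the GLUT1 transporter of most dividing cells, was the most abundant glucose transporter transcript of the set. It was 614 and 605 CPM in WT and 715 and 716 in KO with vehicle, and 483 and 486 in WT and 637 and 634 in KO with JSH-23. KO samples were above WT samples in both treatments and JSH-23 samples below vehicle samples in both genotypes. The log2 fold change of KO against WT was 0.23 ± 0.018 (SE, adjusted p = 4.27e-18) with vehicle and 0.39 ± 0.019 (adjusted p = 1.12e-28) with JSH-23. JSH-23 changed it by -0.33 in WT and -0.17 in KO, and the interaction of 0.16 (adjusted p = 8.20e-07) was -0.039 on log2(TPM + 1). *Slc2a4*, the insulin-responsive GLUT4, was low, with 5.47 to 11 CPM, and had the same order: 1.32-fold and 1.32-fold higher in KO (adjusted p = 0.00719 and 0.0204). *Slc2a3*, the neuronal GLUT3, had at most 2 counts.

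Hexokinase transcript was made of *Hk1* and *Hk2* in similar amounts. *Hk2*, the form that tumors often induce, was 377 and 377 CPM in WT and 417 and 420.3 in KO with vehicle, and 342 and 342 in WT and 348 and 347 in KO with JSH-23. It was higher in KO with vehicle (0.15 ± 0.022, adjusted p = 1.25e-08), and its difference with JSH-23 did not pass (0.022 ± 0.022, adjusted p = 0.444). *Hk1* went the other way: it was 1.10-fold lower in KO with vehicle and 1.27-fold higher with JSH-23. The share of *Hk1* in hexokinase TPM was 59.5% ± 0.30 in WT and 54.8% ± 0.30 in KO with vehicle (SD, n = 2), and 55.2% ± 0.089 and 60.6% ± 0.22 with JSH-23, so its order between genotypes turned.

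*Hk3*, a hexokinase known mainly from myeloid cells, had 10 and 12 counts in WT and 0 and 1 in KO with vehicle, and 7 and 0 in WT and 0 and 0 in KO with JSH-23. The ratio of WT to KO with vehicle was 24.7 with an exact 95% interval of 4.0 to 1020 that covers counting error only, and edgeR called it lower in KO in both treatments (adjusted p = 0.000532 and 0.0247). With JSH-23 the call rested on the first WT sample, without which no count was left, and was also lost without either treated KO sample (adjusted p = 0.11 and 0.13). The call with vehicle was lost with DESeq2 (adjusted p = 0.19). Leukocyte markers followed the same samples. *Itgam* had 10 and 15 counts in WT with vehicle, 12 and 0 in WT with JSH-23 and at most 1 in KO samples, and *Adgre1* had 17, 19, 17 and 1 in the same WT samples and at most 2 in KO samples. The summed list did not separate the genotypes with vehicle, at 19.8 and 21.2 CPM in WT and 19.9 and 22.3 in KO. *Cd68*, which is not limited to leukocytes, was higher in KO (301 and 378 counts against 110 and 127). It made up 16.6 and 18.3 CPM of the KO sums. Of the 5 tested leukocyte markers, 4 were called lower in KO with vehicle and 1 higher. *Csf1r* had 21 and 24 counts in WT and 2 and 6 in KO with vehicle, and *Lyz2* 164 and 165 against 54 and 71. With JSH-23 the sum was 19.3 and 10.4 CPM in WT and 13.0 and 10.1 in KO. *Cd3e* and *Cd79a*, the lymphocyte markers, had 0 to 3 counts. The part of such cells in the *Hk3* result was not tested.

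In the preparatory steps, the isomerase *Gpi1* and the isomerase *Tpi1* fell with JSH-23 in WT by 1.29-fold and 1.32-fold. Of the 7 upper glycolysis members, 5 fell and 1 rose in WT by the adjusted p, and 3 rose and 3 fell in KO, where *Aldoa* and *Aldoc* turned to falls on log2(TPM + 1). None reached 1.5-fold in any comparison. The shares of all genes that fell or rose with JSH-23 are given above, and the counts of these 7 members were not tested against them. Phosphofructokinase, the committed step, changed in composition. *Pfkl* was 509.8 and 501 CPM in WT with vehicle and 375 and 362 in WT with JSH-23, and *Pfkp* was 717 and 703 with vehicle and 499 and 504 with JSH-23, while *Pfkm* was 109 and 109.8 with vehicle and 125 and 130.1 with JSH-23. The log2 fold changes in WT were -0.45 ± 0.022, -0.50 ± 0.019 and 0.22 ± 0.038 (adjusted p = 2.23e-28, 1.45e-34 and 1.05e-06). *Pfkm*, the muscle form, made up 14.2% ± 0.18 of phosphofructokinase TPM in WT with vehicle and 21.0% ± 0.71 with JSH-23, and 16.5% ± 0.43 and 20.4% ± 0.16 in KO (SD, n = 2). The 2 samples of each JSH-23 group were above those of its vehicle group. *Aldoa* and *Aldoc*, both aldolases, differed: *Aldoc* was 1.39-fold lower in KO with vehicle and *Aldoa* 1.24-fold higher in KO with JSH-23.

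The PFKFB enzymes set the level of fructose 2,6-bisphosphate, the main activator of phosphofructokinase, and here JSH-23 raised *Pfkfb2* and *Pfkfb4*. *Pfkfb4* was 10.2 and 10.6 CPM in WT and 9.55 and 8.95 in KO with vehicle, and 19.3 and 16.8 in WT and 19.4 and 18.7 in KO with JSH-23. All 4 treated samples were above all 4 vehicle samples, by 0.80 ± 0.11 on the log2 scale in WT (adjusted p = 2.66e-09) and 1.04 ± 0.10 in KO (adjusted p = 5.08e-14). *Pfkfb2* was 115 and 118 CPM in WT and 81.5 and 82.8 in KO with vehicle, and 156 and 157 in WT and 144 and 142 in KO with JSH-23. It was 1.42-fold lower in KO than in WT with vehicle and only 1.10-fold lower with JSH-23. JSH-23 raised it by 0.42 ± 0.035 in WT and by 0.80 ± 0.036 in KO, and the interaction of 0.37 ± 0.051 passed the adjusted p (5.15e-09) but not the fold. *Pfkfb3*, the form with the highest ratio of kinase to phosphatase activity, was 79.3 and 85.1 CPM in WT and 89.2 and 87.5 in KO with vehicle and 94 and 99.3 in WT and 81.9 and 80.6 in KO with JSH-23. It rose in WT (0.23 ± 0.044) and was lower in KO (-0.12 ± 0.043, adjusted p = 0.00971, lost with DESeq2). The fall in KO was -0.10 without the first KO vehicle sample, and -0.11 and -0.086 without the first or the second treated KO sample. *Pfkfb1* was scarce, with 3.31 and 2.56 CPM in KO with vehicle and 1.35 and 1.73 with JSH-23, a fall of 1.89-fold (adjusted p = 0.00423) that did not pass the test without the first KO vehicle sample (0.071).

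**Figure D3:**
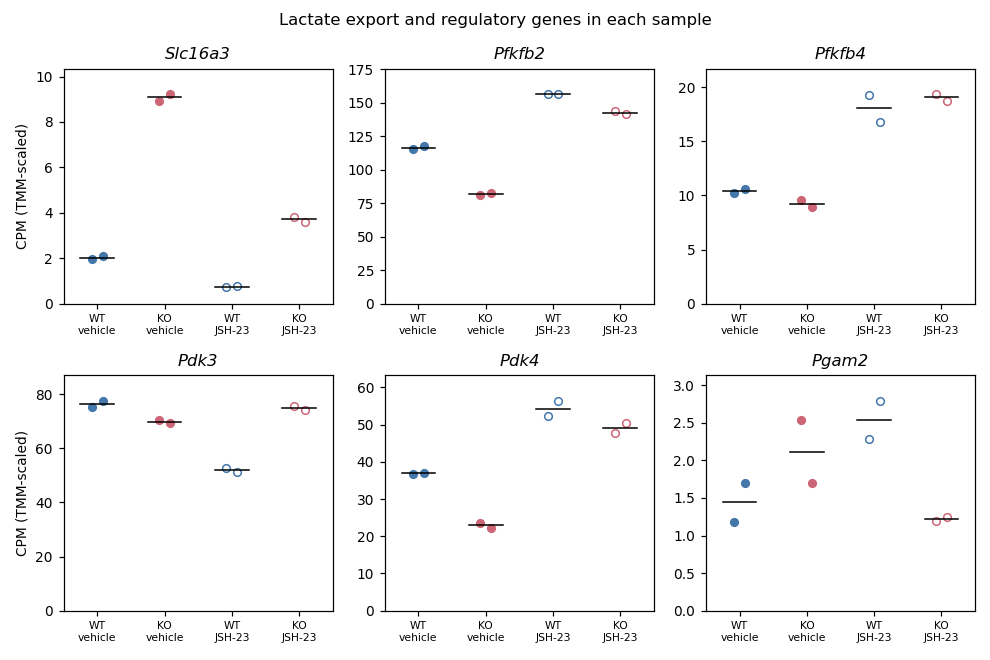
Each panel plots the CPM (TMM-scaled, linear axis from 0) of 1 gene in the 8 samples, with blue for WT, red for KO, filled points for vehicle, open points for JSH-23 and a line at the mean of 2 samples. *Slc16a3* is highest in both KO vehicle samples, all JSH-23 samples of *Pfkfb2*, *Pfkfb4* and *Pdk4* lie above the vehicle samples of the same genotype, and *Pdk3* is lowest in WT with JSH-23.

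In the payoff steps, which make ATP and NADH, *Gapdh*, *Pgk1*, *Eno1* and *Pkm* were highest in treated KO cells by TMM-scaled CPM. By mean TPM the first 3 were highest in WT with vehicle, at 7798 against 7261 in treated KO cells for *Gapdh*, 8915 against 8164 for *Pgk1* and 3828 against 3460 for *Eno1*, and *Pkm* in KO with vehicle, at 4008 against 3528. *Pgk1* (chrX:106187100-106203699) was 6443 and 6444 CPM in WT and 5189 and 5189 in KO with vehicle, and 5363 and 5345 in WT and 6928 and 6930.4 in KO with JSH-23. The samples of a group lay close together and the groups did not overlap. KO cells were lower with vehicle (-0.31 ± 0.0098, adjusted p = 2.28e-39) and higher with JSH-23 (0.37 ± 0.0098, adjusted p = 9.06e-44). JSH-23 lowered *Pgk1* in WT by 1.20-fold and raised it in KO by 1.33-fold, each under 1.5-fold. The interaction was 0.68 ± 0.014 (1.61-fold, adjusted p = 2.62e-50), and 0.58 with no scaling and 0.49 on log2(TPM + 1), which keep the sign and fall under 1.5-fold.

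*Gapdh*, often used as a reference gene, was likewise lower in KO with vehicle and higher with JSH-23. It was 5949 and 5972 CPM in WT and 5221 and 5279.9 in KO with vehicle, and 5037 and 5110.4 in WT and 6508 and 6527 in KO with JSH-23. The treated genotypes differed 1.28-fold, with KO higher. Its interaction was 0.54 ± 0.014 (adjusted p = 2.09e-43). *Eno1*, the main enolase, was 3051 and 3029 CPM in WT and 2679 and 2710.2 in KO with vehicle and 2588 and 2576 in WT and 3222 and 3231 in KO with JSH-23, with an interaction of 0.50 ± 0.017 (adjusted p = 4.84e-37). Reads of *Eno1* can be split with a near-identical copy, *Eno1b*. *Eno1b* had the same direction in all 5 comparisons, and the sum of both gave an interaction of 0.52.

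*Pkm* was 6413 and 6362 CPM in WT and 6424 and 6465 in KO with vehicle, which did not pass (0.013 ± 0.0098, adjusted p = 0.272), and 5279.9 and 5290.3 in WT and 6677 and 6704 in KO with JSH-23. The low group was WT with JSH-23, at -0.27 ± 0.0098 against vehicle (adjusted p = 5.51e-36). In KO its change of 0.054 ± 0.0098 turned to -0.060 without scaling and to -0.18 on log2(TPM + 1), so that its direction in KO depends on the scaling. The files give 1 value for *Pkm* and do not separate its splice forms. *Pklr*, the liver pyruvate kinase, had at most 1 count. *Pgam1* and *Eno3* fell in WT with JSH-23 by 1.29-fold and 1.13-fold.

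*Pgam2*, the muscle phosphoglycerate mutase, crossed in the opposite way at a very low level. It had 20 and 29 counts in WT and 46 and 35 in KO with vehicle, and 41 and 46 in WT and 22 and 26 in KO with JSH-23. The vehicle groups overlapped in CPM and the JSH-23 groups did not. JSH-23 raised it 1.75-fold in WT and lowered it 1.72-fold in KO (adjusted p = 0.0253 and 0.0272, neither passing with DESeq2). KO was 2.07-fold lower with JSH-23 (adjusted p = 0.0042), and the interaction was -1.59 ± 0.45 (adjusted p = 0.00309). The interaction lost its call without the first KO vehicle sample (adjusted p = 0.056), the difference between treated genotypes without the second treated WT sample (0.057), the rise in WT without that sample (0.16) or the first WT vehicle sample (0.22), and the fall in KO without the first KO vehicle sample (0.33) or either treated KO sample (0.096 and 0.084). The 7 skeletal muscle markers summed to 2.17 to 2.49 CPM in WT and 1.32 to 1.94 in KO with vehicle, and 2.68 to 3.04 in WT and 3.46 to 4.46 in KO with JSH-23, 4 of them with at most 3 counts in every sample. Those sums were highest in the KO JSH-23 samples, where *Pgam2* was low. The part of muscle cells in the *Pgam2* values was not tested.

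*Ldha* (chr7:46842274-46855627), which makes lactate from pyruvate, was lower in KO with vehicle and higher with JSH-23. It was 2930.3 and 2946 CPM in WT and 2513 and 2566 in KO with vehicle, and 2499 and 2514 in WT and 3396 and 3408 in KO with JSH-23, so both treated KO samples were above all other samples on this scale. By mean TPM it was 1389 in WT with vehicle and 1369 in KO with JSH-23. KO against WT was -0.21 ± 0.012 with vehicle (adjusted p = 1.05e-24) and 0.44 ± 0.012 with JSH-23 (adjusted p = 7.38e-43). The interaction was 0.65 ± 0.017 (1.57-fold, adjusted p = 1.46e-43), 0.55 with no scaling and 0.45 on log2(TPM + 1). *Ldhb*, the subunit that favors lactate oxidation, had 2 to 15 counts, so lactate dehydrogenase transcript was almost wholly *Ldha*.

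The lactate exporter *Slc16a3* (MCT4, chr11:120948484-120959000) had the largest genotype difference among the members with counts in every sample. It was 1.96 and 2.12 CPM in WT and 8.94 and 9.24 in KO with vehicle, and 0.725 and 0.79 in WT and 3.83 and 3.60 in KO with JSH-23, from 13 to 191 counts. The 4 groups did not overlap, with KO above WT in both treatments and JSH-23 below vehicle in both genotypes. KO cells had 4.46-fold more with vehicle (2.16 ± 0.19, adjusted p = 1.77e-15) and 4.87-fold more with JSH-23 (2.28 ± 0.28, adjusted p = 1.41e-10). JSH-23 lowered it 2.68-fold in WT (adjusted p = 0.000139) and 2.45-fold in KO (adjusted p = 3.77e-10). The interaction of 0.13 ± 0.36 did not pass (adjusted p = 0.821), and treated KO cells stayed above untreated WT cells in every sample. *Slc16a1*, the more abundant carrier MCT1, was 183 and 186 CPM in WT and 192 and 184 in KO with vehicle and 178 and 178 in WT and 168 and 155 in KO with JSH-23. It fell with JSH-23 in KO (-0.22 ± 0.031, adjusted p = 6.35e-09) and did not pass between genotypes with vehicle (adjusted p = 0.505).

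Among the kinases that inhibit pyruvate dehydrogenase, *Pdk4*, which is induced in fasting and by fatty acids, was called in 2 comparisons. It was 36.8 and 37 CPM in WT and 23.7 and 22.3 in KO with vehicle, and 52.2 and 56.4 in WT and 47.7 and 50.3 in KO with JSH-23. KO was 1.61-fold lower with vehicle (adjusted p = 6.99e-13) and 1.11-fold lower with JSH-23. JSH-23 raised it by 0.56 ± 0.063 in WT and by 1.10 ± 0.067 in KO (adjusted p = 9.13e-12 and 9.70e-24), only the latter past 1.5-fold. *Pdk3* was 75.4 and 77.6 CPM in WT and 70.3 and 69.5 in KO with vehicle, and 52.7 and 51.3 in WT and 75.7 and 74.3 in KO with JSH-23, so that treated WT was the low group. Its interaction was 0.66 ± 0.068 (adjusted p = 7.02e-13), 0.55 with no scaling and 0.46 on log2(TPM + 1).

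*Pdk1*, a known HIF-1 target, was 312 and 315 CPM in WT and 278 and 273 in KO with vehicle and 244 and 244 in WT and 249 and 257 in KO with JSH-23, lower with JSH-23 in both genotypes (-0.36 and -0.13). *Pdk2* rose with JSH-23 in WT by 1.42-fold, while in KO its change did not pass (adjusted p = 0.349). Its interaction was -0.47 (adjusted p = 1.48e-11), -0.57 with no scaling and -0.66 on log2(TPM + 1), where it was called. The largest share of Pdk TPM passed from *Pdk1* (36.2% ± 0.65 in WT with vehicle) to *Pdk2* (40.1% ± 0.14 in WT with JSH-23), with 36.4% ± 0.63 and 35.3% ± 0.21 for *Pdk2* in KO with vehicle and JSH-23 (SD, n = 2). Of the complex itself, *Dlat* rose 1.37-fold and *Pdha1* 1.24-fold in KO with JSH-23, and *Pdhb* fell 1.09-fold (adjusted p = 0.0203).

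**Figure D4:**
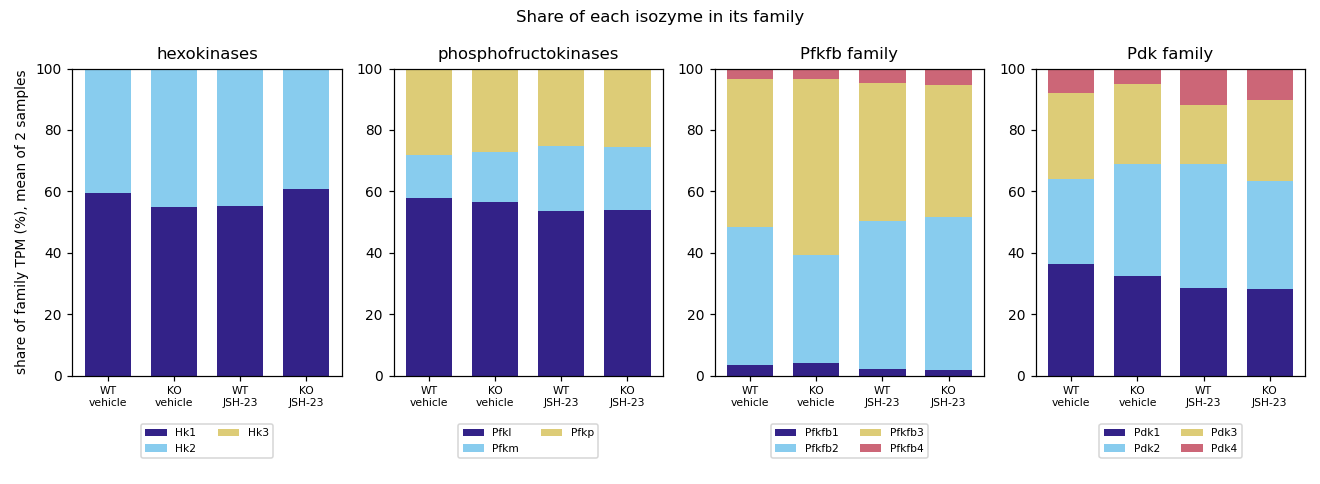
Stacked bars give the share of each isozyme in the summed TPM of its family (percent, mean of 2 samples) in the 4 groups, for hexokinases, phosphofructokinases, the Pfkfb family and the Pdk family. *Pfkm* grows with JSH-23 in both genotypes, from 14.2% to 21.0% in WT and from 16.5% to 20.4% in KO, and *Pfkfb3* is largest in KO with vehicle at 57.4%.

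A further 62 genes of neighboring pathways were taken from a list: other sugar transporters and glycolytic genes, other lactate carriers, pyruvate dehydrogenase phosphatases, gluconeogenesis, the pentose phosphate pathway and glycogen metabolism. Of these, 45 were tested, and 2 were called higher and 1 lower in KO with vehicle (4.44% and 2.22%, all genes 7.48% and 5.16%) and 3 and 2 in KO with JSH-23 (6.67% and 4.44%, all genes 3.74% and 4.97%). JSH-23 called 2 and 4 in WT (4.44% and 8.89%, all genes 5.55% and 10.2%) and 5 and 3 in KO (11.1% and 6.67%, all genes 9.1% and 16.9%), and the interaction 3 and 3 (6.67% each, all genes 3.3% and 5.76%). In KO with JSH-23 against vehicle these were 2 and 5 with library size alone and 1 and 7 on log2(TPM + 1), and for the interaction 1 and 4, and 1 and 3. Under these 2 scalings 3742 and 3180 of all 13921 genes were called in KO, and 1433 and 1490 for the interaction. In the pentose phosphate list, 4 of 8 were called higher with JSH-23 in KO (all genes 9.1%) and 1 of 8 in WT (5.55%). The 4 became 2 with library size alone, *G6pdx* (0.71 on the log2 scale) and *Taldo1* (0.90), and 1 on log2(TPM + 1), *Taldo1* (0.77), where *Rpia* was called lower (-0.65). *G6pdx*, the entry enzyme of that pathway, was 143 and 140.3 CPM in WT and 101 and 104 in KO with vehicle, and 157 and 160.0 in WT and 181 and 182 in KO with JSH-23. Its interaction was 0.66 ± 0.047 (adjusted p = 1.03e-19), and *Taldo1*, transaldolase, rose 1.84-fold in WT and 2.01-fold in KO. *Pgls* and *Tkt* were the other two called in KO, at 1.62-fold and 1.52-fold, with log2 fold changes of 0.46 and 0.36 on log2(TPM + 1), where *G6pdx* was at 0.58. The interactions of *G6pdx* and *Pdp2* were not called under either of the other scalings, which were added for these genes after seeing the data.

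*Gbe1*, the glycogen branching enzyme, was 225 and 224 CPM in WT and 202 and 197 in KO with vehicle, and 109 and 112 in WT and 200.2 and 189.9 in KO with JSH-23. The treated WT samples lay far below the rest, and the interaction was 0.99 ± 0.044 (adjusted p = 2.59e-30). *Slc2a6* (GLUT6) was 1.78-fold higher in KO with vehicle and fell 2.27-fold with JSH-23 in KO, with an interaction of -0.78. *Tigar*, a phosphatase that lowers fructose 2,6-bisphosphate, was 1.58-fold lower in KO with JSH-23 and had an interaction of -1.20 (adjusted p = 0.000323), and *Pdp2*, a pyruvate dehydrogenase phosphatase, had one of 0.66. *Slc16a7* (MCT2) was 2.38-fold and 2.25-fold higher in KO, in all KO samples against the WT samples of the same treatment. *Slc16a8* (MCT3) had 10 and 7 counts in WT and 13 and 31 in KO with vehicle and 1 to 3 with JSH-23, and *Pck1* (gluconeogenesis) 0 to 21 counts with overlapping groups in every comparison. *Bsg*, the partner that carries MCT1 and MCT4 to the membrane, was 1938 and 1924 CPM in WT and 2312 and 2298 in KO with vehicle, and 1386 and 1405 in WT and 2245 and 2259 in KO with JSH-23. It was 1.61-fold higher in KO with JSH-23 (adjusted p = 3.77e-52), with a log2 fold change of 0.69 with TMM and 0.61 with library size alone. Its mean TPM with JSH-23 was 2763 in KO and 1955 in WT. *Bsg* was named after its value was seen, as were *Pgls*, *Tkt* and *Rpia*.

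The calls of the interaction depended on the scaling. They were 3 higher and 1 lower with TMM, 0 higher and 1 lower with library size alone, and 0 higher and 2 lower on log2(TPM + 1). These last 2 were *Pgam2* and *Pdk2*. Of all 13921 genes, 1262, 1433 and 1490 were called in either direction under these scalings. Among the 26 members past the adjusted p, none changed sign with library size alone and 3 did on log2(TPM + 1), *Slc2a1*, *Pgam1* and *Eno3*. For JSH-23 in KO, 3 of 29 changed sign with library size alone (*Hk1*, *Pkm* and *Pdk3*) and 5 on log2(TPM + 1) (*Aldoa* and *Aldoc* as well). The calls there were 3 higher and 3 lower with TMM and 1 higher and 4 lower on log2(TPM + 1) (all genes 3625 and 3180). For KO against WT with JSH-23, *Pfkl*, *Pfkm*, *Pfkp* and *Pdha1* changed sign on log2(TPM + 1), and with vehicle, as for JSH-23 in WT, none did.

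**Figure D5:**
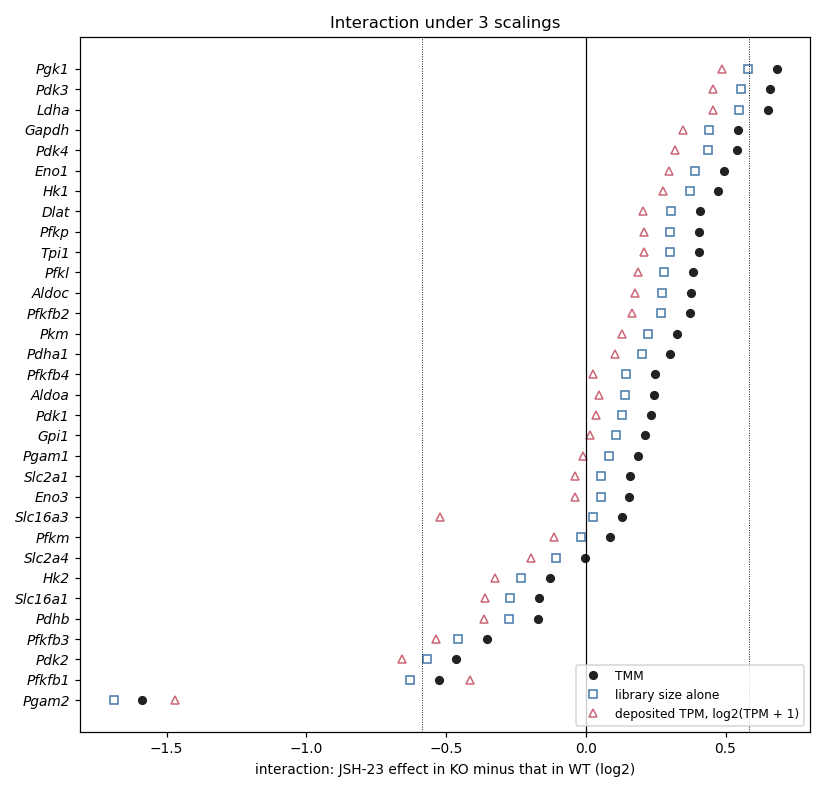
The interaction (JSH-23 effect in KO minus that in WT, log2) of 32 tested members, without *Hk3*, under TMM scaling (black circles), library size alone (blue squares) and log2(TPM + 1) of the deposited TPM (red triangles), with dotted lines at 1.5-fold. *Pgk1*, *Pdk3* and *Ldha* lie past the line with TMM alone and stay above 0 under each scaling.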

How the data were processed

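RNA-seq of EpCAM+ CD45- cells sorted from Myc-CaP tumors was analysed in 8 samples, grouped by the genotype and treatment in the sample labels. Per the study's methods the authors aligned reads to GRCm38/mm10 with TopHat2, keeping best matches, and counted them per gene by strand using HTSeq-count. The submitters' processing notes name HISAT2, HTSeq and DESeq2 instead of TopHat2, and the difference could not be settled. The counts the authors deposited are whole and not normalized. The deposited TPM values are counts divided by a gene length and scaled per sample by the authors, and were used to rank genes, for isozyme shares and as an alternative. Best-match counting can split reads between near-identical genes.

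Genes were filtered with filterByExpr (13921 of 39089 rows kept), scaled with TMM (factors 0.949 to 1.03) and fitted with group means in edgeR 4.0.16 (R 4.3.3). A total of 5 comparisons were tested with the quasi-likelihood test and called at a Benjamini-Hochberg adjusted p under 0.05 and 1.5-fold. The fit was tested on simulated data with known changes. At totals of 16401581 to 21972231 counts, 3 counts are 0.137 to 0.183 CPM. Replicate numbers did not pair the samples (correlations of deviations between -0.0964 and 0.0401). Alternatives were DESeq2 1.42.0, no scaling, limma 3.58.1 on log2(TPM + 1) and log2(TPM + 0.1), no filter, a minimum of 10 counts per sample, the replicate block, coefficients of variation of 0.1 and 0.2, a test against 1.5-fold, other call rules, only the groups compared, and each sample left out. Promoters are from RefSeq (GRCm38.p6).

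Each member may be named. Members called in a comparison (with at least 10 counts in 1 sample), the 5 with the smallest interaction p and *Slc2a1*, *Hk2*, *Pfkfb3*, *Pgk1*, *Pkm*, *Ldha*, *Slc16a1*, *Slc16a3* and *Pdk1* are given by sample, and other pathway genes are named if called in the interaction or in 2 comparisons. The members and lists were chosen with earlier results of these data known. No protein sequences were used here.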

Additional observations from a re-analysis of the deposited data

Results flagged for a closer look

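The effect of JSH-23 differed between WT and KO cells, by the interaction term in edgeR (quasi-likelihood test, p adjusted by Benjamini-Hochberg) and at least 1.5-fold, for 4 of the 33 tested members. Of the members 9.09% were above and 3.03% below 0, against 3.3% and 5.76% of all genes. Each is given with its value on the log2 scale. For *Pgk1* it was 0.68 (adjusted p = 2.62e-50). In CPM, both treated WT samples lay below both WT vehicle samples, and both treated KO samples above both KO vehicle samples. For *Ldha* it was 0.65 (adjusted p = 1.46e-43), with treated and vehicle samples in the same order within each genotype. For *Pdk3* it was 0.66 (adjusted p = 7.02e-13), mostly a lower level in both treated WT samples. For *Pgam2* it was -1.59 (adjusted p = 0.0031), at 20 to 46 counts, with a rise in WT and a fall in KO. The first 3 kept their sign and were under 1.5-fold with library size alone and on log2(TPM + 1). With DESeq2 they were called.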

How the results depend on the processing

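Results of single genes mostly held in direction. Of 942 comparisons of a named member with an alternative, 805 kept direction and side of the threshold. A further 132 did not reverse but lost the adjusted p or the 1.5-fold, and some of these had not been called. Among them, *Hk3* in KO against WT with JSH-23 fell to 0 without the first treated WT sample. The other 5 reversed. *Pkm* with JSH-23 in KO turned to -0.060 with no scaling and to -0.18 on log2(TPM + 1) and log2(TPM + 0.1), and the interaction of *Slc2a1* turned to -0.039 on both TPM scales. The members called in KO against WT with vehicle were 3, and 26 by adjusted p alone (all genes 1760 and 7032 of 13921). In KO against WT with JSH-23 they were 3, and 1 at a coefficient of variation of 0.2 (all genes 1212 and 258). Against 1.5-fold they were 1, and by adjusted p alone 27 (all genes 312 and 6536). For JSH-23 in WT they were 3, and 1 at 0.2 (all genes 2197 and 809). Against 1.5-fold they were 1, and by adjusted p alone 26 (all genes 795 and 7774). For JSH-23 in KO they were 6, and 29 by adjusted p alone (all genes 3625 and 9442). For the interaction they were 4, and 1 with no scaling and 2 on each TPM scale (all genes 1262, 1433, 1490 and 1711). At 0.2 they were 0, against 1.5-fold 2 and by adjusted p alone 26 (all genes 47, 224 and 5346). Each fit with 1 sample left out holds a group with 1 sample, so its calls are not counted here. For JSH-23 in WT, *Hk3*, *Pdk4* and *Pfkfb1* joined *Pfkfb4*, *Pgam2* and *Slc16a3* without the first treated WT sample. For JSH-23 in KO, *Pfkfb1* and *Pgam2* lost their calls without the first KO vehicle sample. The 8 members that fell in WT and rose in KO, a count chosen after seeing the data, were 5 with no scaling, 3 on each TPM scale and 0 at 0.1 or 0.2. With the replicate block the members called were, in the order of comparisons above, 3, 3, 4, 6 and 4 (all genes 1750, 1200, 2187, 3612 and 1269). The 8 remained 8. For the 8 the share of all genes is given for the main fit only. The replicate numbers did not pair the samples. Apart from the scalings and the settings of spread, whose construction shows the change, the cause was not tested. At the depth of these samples *Hk3*, *Pgam2* and *Pfkfb1*, each under 61 counts, carry wide errors.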
